A study of Caenorhabditis elegans with 2 samples.

Results

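The genes described here are the protein-coding genes that carried the most antisense small RNA bound to NRDE-3 in wild-type embryos of the nematode Caenorhabditis elegans. They were chosen by their readout. A gene entered when its antisense reads reached 50 reads per 1000000 counted reads (RPM) in the wild-type library and at least 4 times the RPM of the second, RNAi library. Gene families with their own character were left out by name (F-box, MATH and BTB genes, histones, numbered collagens and a list of known ERGO-1 targets). Of 20535 genes with protein-coding lines in the deposited tables, among 45510 genes in all, 63 met the rule. Another 15 genes passed both thresholds and were among those left out. Because the antisense level in the wild-type library and its ratio to the RNAi library chose the genes, these values are a description and are not evidence of a difference.

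NRDE-3 is an Argonaute protein of somatic cells that carries small RNAs from the cytoplasm into the nucleus. Its cargo, the 22G-RNAs, is made by RNA-dependent RNA polymerases on a target transcript, so the small RNAs are antisense to the RNA they target. In unperturbed embryos many of them are known to be secondary products of the ERI pathway, in which the Argonaute ERGO-1 and its 26G-RNAs mark transcripts first. In the nucleus NRDE-3 recruits further NRDE factors to nascent transcripts of the target. eri-1 encodes an exonuclease needed for the ERI pathway, and worms lacking it respond more strongly to added double-stranded RNA.

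Small RNAs were sequenced from anti-FLAG immunoprecipitates of embryo lysates from 2 strains, both grown at 20 °C and both carrying the 3xflag::gfp::nrde-3 transgene. N2 animals with no other mutation listed gave the wild-type library and were fed E. coli OP50. The RNAi library, listed by the study as a control, came from eri-1(mg366);dpy-13(e458) animals fed bacteria for dpy-13 RNAi. With 1 library per group the conditions cannot be tested and no p-value is given. The genotype, the bacteria fed and the preparation of each library cannot be told apart. With neither a replicate nor an input library analysed here, a difference in the RNA present and one in its binding to NRDE-3 cannot be told apart.

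Counted reads numbered 7693320 for the wild type and 5537671 for the RNAi library. A count of 0 allows up to 3 reads, or 0.390 RPM in the wild-type library and 0.542 RPM in the RNAi library, and the floors and intervals below cover counting error only. As a check of the labelled stage, the 8 microRNAs mir-35 to mir-42, which are expressed in embryos, took 11.3% and 22.4% of microRNA sense reads in the wild-type and RNAi libraries. The larval microRNAs lin-4 and let-7 together had 1 and 20 reads.

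The 63 genes held 499851 antisense reads in wild type against 2153 in the RNAi library. That was 37.6% (Wilson 95% interval 37.5 to 37.6) of the wild-type antisense reads outside structural RNA (ribosomal, transfer, small nucleolar and small nuclear RNA, and microRNA), and 0.505% (0.485 to 0.527) of those in the RNAi library. Among protein-coding genes alone the shares were 60.7% and 0.558%. In sum the level was 167-fold lower in the RNAi library (exact 95% interval 160 to 174), from 64972 to 389 RPM. Over all 5019 protein-coding genes with 10 or more antisense reads in both libraries together, 3.79% were 4-fold or more lower in the RNAi library, 90.0% were 4-fold or more higher, and 1.55% passed both thresholds before any family was left out. These counts set equal RPM as no change, and the higher share depends on it. TMM scaling, which shifts every log2 ratio by -3.57 and takes the median of protein-coding genes from 3.64 to 0.07, gave 7.37% lower and 17.5% higher. Genes with 0 wild-type reads counted as higher under both scalings, and the 17.5% rests largely on them. With 0.5 added to each count, TMM scaling gave 7.19% higher and 6.04% lower. Those shares are of the 4853 measured protein-coding genes that lie more than 10 kb from any of the 63. That set leaves out the 63 genes and their neighbours, so its lower share is not comparable with the 7.37%. The antisense reads of all other protein-coding genes were 323994 and 383525 in sum, or 1.64 times the wild-type RPM (1.64 to 1.65) in the RNAi library, and 0.139 times under TMM scaling, so the direction of that sum is not settled.

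Reads were spread unevenly among the 63 genes. The wild-type level ranged from 52.5 to 5757 RPM with a median of 483 RPM, and 22 genes were at or above 1000 RPM, 27 lay from 100 to under 1000 RPM, and 14 were under 100 RPM. The top 5 genes held 36.2% of the wild-type antisense reads of the 63, the top 10 held 54.8% and the top 30 held 91.0%. Of the 63 genes, 46 were 100-fold or more lower in the RNAi library and 4 were under 16-fold lower.

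**Figure D1:**
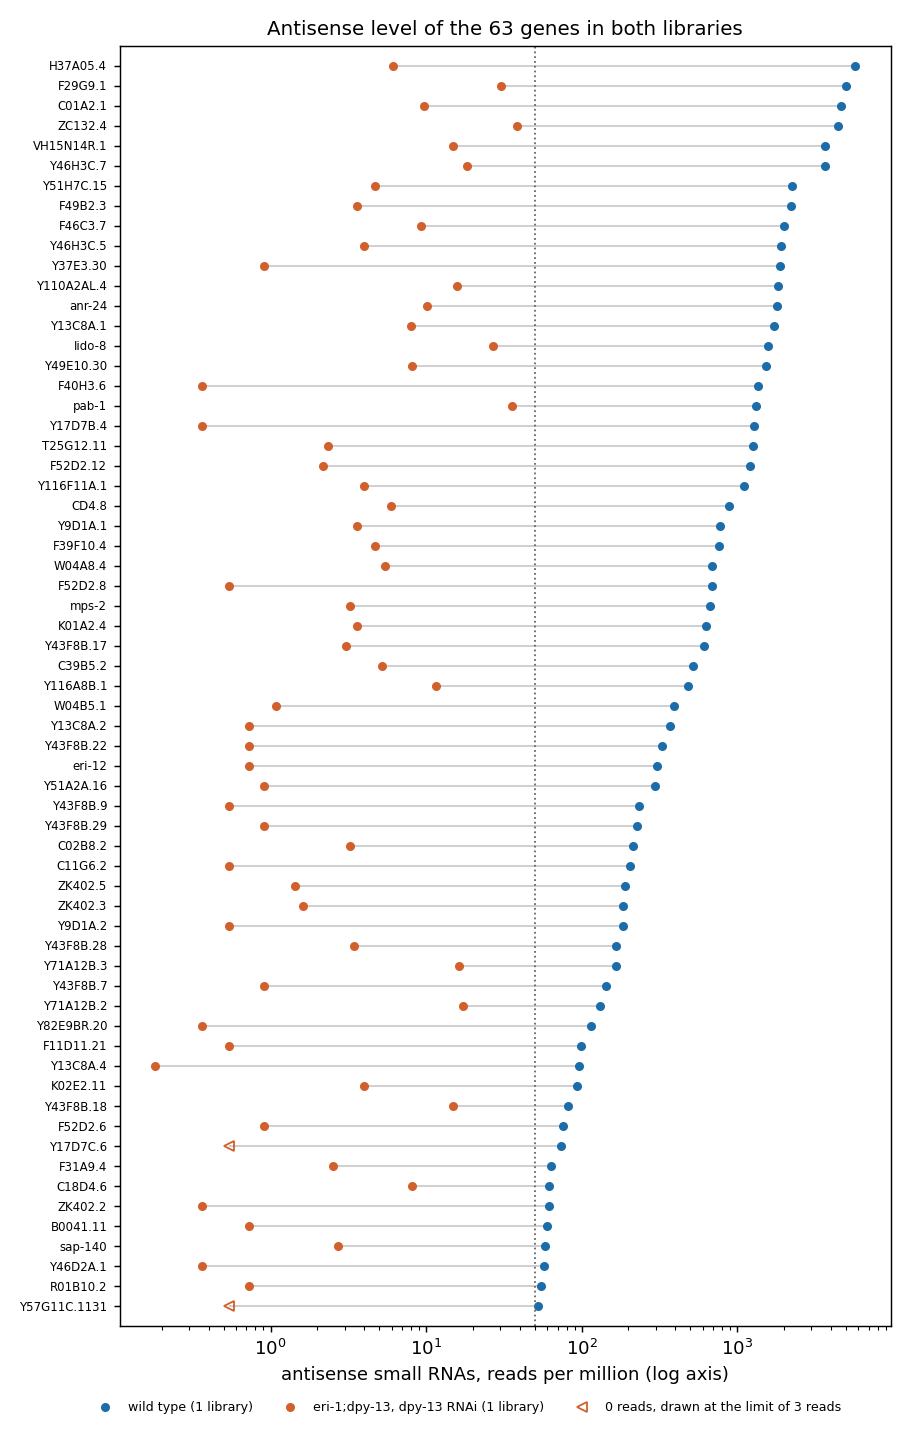
Antisense level of each of the 63 genes in the wild-type library (blue) and in RNAi (orange), in RPM on a log axis; each point is 1 library, the dotted line is the 50 RPM minimum, and open triangles mark 0 reads, drawn at the 3-read limit of 0.542 RPM. Wild-type levels run from 52.5 to 5757 RPM and RNAi levels from 0 to 38.6 RPM.

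The gene with the most reads was H37A05.4 (chromosome V, 13646879 to 13649780, WBcel235), with 44294 antisense reads in wild type against 34 in the RNAi library, 938-fold lower (exact 95% interval 671 to 1354). F29G9.1 (chromosome V, 6039101 to 6040582) had 38413 and 169 reads, 164-fold lower (141 to 191). C01A2.1 (chromosome I, 13409897 to 13411554) had 35705 and 54 reads, 476-fold lower (365 to 634). These genes, like most of the 63, are known by their sequence names and have no genetic name in the annotation. ZC132.4, which has no entry in the annotation used here, had 34239 and 214 reads, 115-fold lower (101 to 132). VH15N14R.1 (chromosome I, 7781178 to 7781647) had 28321 and 82 reads, 249-fold lower (200 to 313). Y46H3C.7 (chromosome V, 1692458 to 1694022) had 28106 and 102 reads, 198-fold lower (163 to 243). These 6 genes ranged from 3653 to 5757 RPM in wild type, and the RNAi library had 6.14 to 38.6 RPM of them.

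The next genes had 9653 to 17246 wild-type reads each and differed in how far the RNAi level lay below. The farthest apart were F40H3.6 (chromosome II, 6186719 to 6187947), with 10403 and 2 reads, and Y17D7B.4 (chromosome V, 18776238 to 18776687), with 9907 and 2 reads. Their ratios were 3744-fold (1036 to 30920) and 3566-fold lower (987 to 29446). Y37E3.30 had 14448 and 5 reads, 2080-fold lower (891 to 6407). With 2 to 5 reads in the RNAi library these intervals overlap widely, so the 3 genes cannot be ordered. F49B2.3 had 17166 and 20 reads, Y51H7C.15 had 17246 and 26, Y46H3C.5 had 14751 and 22, and T25G12.11 had 9653 and 13. These 4 genes were 477-fold to 618-fold lower. A further set lay between 115-fold and 219-fold lower. It held F46C3.7 with 15488 and 51 reads, Y110A2AL.4 with 14038 and 88, Y13C8A.1 with 13240 and 44, and Y49E10.30 with 11734 and 45.

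A read count grows with transcript length, so levels were also set per kilobase of the longest annotated transcript for the 61 genes in the annotation. On that scale VH15N14R.1, with a transcript of 423 bases, stood first at 8703 RPM per kb in the wild-type library. Y13C8A.1, with 210 bases, followed at 8195 RPM per kb, and F46C3.7, with 291 bases, at 6918 RPM per kb. H37A05.4, first by RPM, has a transcript of 2299 bases and ranked 12 at 2504 RPM per kb. Of the top 20 genes by RPM, 17 were also among the top 20 per kilobase. Of the rest, lido-8 ranked 21 and pab-1 ranked 28, while ZC132.4 has no annotated length and could not be ranked. The lowest of the 61 was Y46D2A.1 at 19.4 RPM per kb.

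Few of the 63 genes have a genetic name. Genetic names were carried by 6 of the 63 (9.52%), against 53.3% of the other protein-coding genes. One of them is pab-1 (chromosome I, 10432856 to 10435876), which encodes a cytoplasmic poly(A)-binding protein that binds messenger RNA tails. Its antisense reads numbered 10192 in wild type (1325 RPM) against 198 in the RNAi library (35.8 RPM). It was 37.1-fold lower (32.2 to 42.9), the smallest ratio among the 20 leading genes. lido-8 (chromosome II, 2997021 to 3000653) had 12054 and 150 reads, 57.8-fold lower (49.2 to 68.4). mps-2 (chromosome II, 309451 to 312210), which encodes an accessory subunit of potassium channels, had 5131 and 18 reads, 205-fold lower (130 to 346). eri-12 (chromosome IV, 12156838 to 12164281), a member of the enhanced-RNAi (eri) gene class, had 2343 and 4 reads, 422-fold lower (164 to 1549). sap-140 (chromosome III, 7499738 to 7503241) was near the lower limit, with 448 and 15 reads, 21.5-fold lower (12.9 to 38.7). The sixth, anr-24 (chromosome X, 1995743 to 1996672), is listed under the protein-coding class but its own line calls it an antisense RNA, and it had 13786 and 56 reads, 177-fold lower (136 to 235).

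In the RNAi library the 63 genes had a median antisense level of 3.25 RPM (range 0 to 38.6). For the 4956 of 20472 other protein-coding genes with 10 or more antisense reads over both libraries it was 3.97 RPM. Of the 63 genes, 23 were above that median. The minimum of 10 reads shapes this comparison. The 4956 genes had a median of 0.260 RPM in wild type and passed it mostly on RNAi reads, while the 63 passed it on wild-type reads. How the 63 compare with the genes under 10 reads is not shown by these medians. Y17D7C.6 and a Y57G11C gene with the identifier WBGene00194661 had 0 reads there and 570 and 404 in the wild-type library, at least 137-fold and at least 96.9-fold lower against the floor of 3 reads. In all, 13 of the 63 genes had 3 or fewer antisense reads in the RNAi library. The highest RNAi levels were those of ZC132.4 at 38.6 RPM, pab-1 at 35.8, F29G9.1 at 30.5, lido-8 at 27.1 and Y46H3C.7 at 18.4 RPM, all from the 20 leading genes of the wild-type library.

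Few genes lay near the ratio threshold, but genes lay close to the level threshold on both sides. With the ratio kept, a wild-type minimum of 25 RPM gave 76 genes and a minimum of 100 RPM gave 49. Just above 50 RPM lay WBGene00194661 at 52.5 RPM, R01B10.2 at 54.98 and Y46D2A.1 at 56.9. Just below lay F52G3.5 at 48.6 RPM, anr-26 at 48.0 and Y17D7B.10 at 45.8. The smallest ratios inside were 5.50-fold for Y43F8B.18 (627 and 82 reads), 7.58-fold for C18D4.6 (474 and 45) and 7.68-fold for Y71A12B.2 (1014 and 95). The eligible genes of 50 RPM or more on the other side of the ratio were Y57G11C.51 (462 and 1492 reads) and F23A7.4 (396 and 4652), both higher in RPM in the RNAi library, so that in RPM no such gene lay between equal levels and 4-fold.

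Sense reads, which match the strand of the transcript and did not enter the rule except through the library total, did not show the large excess of wild-type antisense reads. All 63 genes had more antisense than sense reads in the wild-type library, and in 51 of them over 99% of the reads were antisense. The lowest antisense share there was 90.4%, in R01B10.2. In the RNAi library the antisense share had a median of 69.0% over the 62 genes with a read, and 21 genes had more sense than antisense reads. The rule itself favours a high antisense share in wild type and a lower one in the RNAi library, so these shares are a description. In the summed reads of the other protein-coding genes, 56.7% were antisense in wild type and 46.9% in the RNAi library. Summed over the 63 genes, sense reads were 2986 and 1962, or 388 and 354 RPM, a ratio of 0.913 (exact 95% interval 0.862 to 0.967). Over the other protein-coding genes the summed sense level in RPM was 2.44 times as high (2.43 to 2.45) in the RNAi library. The sum leaned on pab-1, which had 637 and 738 sense reads. Without it the ratio was 0.724. Without the 10 genes that overlap a gene on the other strand, but with pab-1 kept, it was 1.06. The ratio without both was not computed, so the direction of the sum is not settled.

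By gene, 38 of the 63 had 10 or more sense reads, and 23 of these were lower in the RNAi library, against 5.50% of the 6823 protein-coding genes with as many sense reads. Their median log2 ratio of sense reads (RNAi over wild type, 0.5 added to each count) was -0.19, against 1.46 for the other protein-coding genes. Of the 38, 35 lay below that median of the other genes, a count that no scaling of the libraries changes. At 4-fold, 3 of the 38 were lower, where 0.410% of protein-coding genes were, and 3 were higher, where 28.1% were. C01A2.1 had 121 and 8 sense reads, a ratio of 0.0919 (0.0388 to 0.187). mps-2 had 40 and 5, a ratio of 0.174 (0.0535 to 0.440), and R01B10.2 had 45 and 6, a ratio of 0.185 (0.0646 to 0.436). mps-2 shares 118 bases of exon with K01A2.4 on the opposite strand. There its sense reads cannot be told apart from antisense reads of K01A2.4, which had 4864 and 20. The higher 3, named after their values were seen, were C39B5.2 with 6 and 39 reads, Y43F8B.18 with 30 and 97, and Y116F11A.1 with 3 and 12. Among the genes with the most sense reads, eri-12 had 187 and 130 sense reads, a ratio of 0.966 (0.766 to 1.21), beside its 422-fold lower antisense level. Y46H3C.7 had 249 and 73 sense reads, lido-8 had 420 and 129, and W04A8.4 had 180 and 53.

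**Figure D2:**
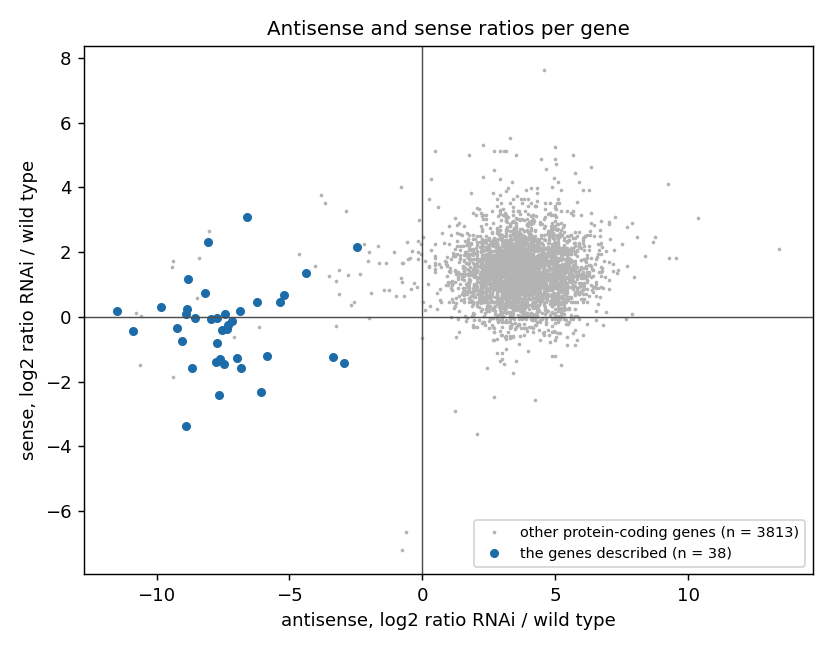
Log2 ratio of RNAi over wild type for antisense reads (horizontal axis) and sense reads (vertical axis) of protein-coding genes with 10 or more reads on each strand; blue points are 38 of the 63 genes and grey points 3813 others, each from 1 library per group. The antisense position of the blue points follows from the rule; their sense ratios have a median of -0.19, while most grey points lie above 0.

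Where a gene had several transcript lines, the reads showed on which of them they were counted. Bowtie2 reports 1 place for a read that matches several equally well, so reads in exons that transcripts share are divided among their lines. The 12 lines of pab-1 held 783 to 929 wild-type antisense reads each. Of the 13 genes with several protein-coding lines, 6 had a top line under 1.2 times an even share, and in 4 it was at least 1.5 times an even share. The most uneven gene was C39B5.2 (chromosome III, 2234884 to 2236987), described here after its values were seen. Its transcript C39B5.2b held 4014 of 4017 wild-type reads (99.9%, Wilson 95% interval 99.8 to 100.0), and 14 of 29 reads in the RNAi library (48.3%, 31.4 to 65.6). lido-8 had 9045 wild-type reads on one line and 3009 on the other, a share of 75.0% (74.3 to 75.8) for the first. In the RNAi library the lines had 73 and 77 reads, a share of 48.7% (40.8 to 56.6). In mps-2 the line K01A2.8d held 10.0% (9.24 to 10.9) of wild-type reads and 38.9% (20.3 to 61.4) of the 18 RNAi reads. In C18D4.6 the line C18D4.6d held 32.3% (28.2 to 36.6) of wild-type reads and 6.67% (2.29 to 17.9) of RNAi reads. In pab-1 1 of the 12 lines held 7.86% (7.35 to 8.40) and 13.6% (9.54 to 19.1). These 5 of the 13 genes had a line whose intervals in the libraries did not overlap, with no correction for the number of lines compared. In C01A2.1 the intervals overlapped on every line, with 57.2% (56.7 to 57.7) and 59.3% (46.0 to 71.3) of reads on the first.

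Many of the 63 genes lie side by side. Of the 61 with a position, 25 (41%) had another of the genes within 10 kb, whereas 0.977% of the 20170 other placed protein-coding genes had one of the 63 within that distance. The 25 genes formed 9 groups, and in each group every placed protein-coding gene of the tables that lies in the span was one of the 63. Each span runs only from the first to the last of its own genes, and most groups are pairs. The spans therefore leave little room for other genes.

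The largest group was 7 genes of Y43F8B at the right end of chromosome V (19478152 to 19491820, 13.7 kb), all on the plus strand. Along the locus Y43F8B.9 had 1800 and 3 antisense reads, Y43F8B.22 had 2518 and 4, Y43F8B.17 had 4718 and 17, and Y43F8B.28 had 1280 and 19. They were followed by Y43F8B.18 with 627 and 82, Y43F8B.7 with 1107 and 5, and Y43F8B.29 with 1754 and 5. Together the 7 held 13804 and 135 reads, 73.6-fold lower (62.1 to 87.9). Y43F8B.18 stood apart in this group: it had 82 of the 135 RNAi reads and the lowest wild-type level, 81.5 RPM, while the other 6 lay between 144 and 613 RPM. It was also the gene of the group with the most sense reads, as given above.

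On chromosome X, 3 genes of F52D2 (1975992 to 1984833), all on the plus strand, had 15139 and 20 reads in sum, 545-fold lower (353 to 892). Most were on F52D2.12 (9245 and 12) and F52D2.8 (5309 and 3), with 585 and 5 on F52D2.6. Also on X, 3 genes of ZK402 (1398824 to 1404117) on both strands had 3356 and 19 reads, with ZK402.5 (1457 and 8) and ZK402.3 (1426 and 9) ahead of ZK402.2 (473 and 2). Their group ratio was 127-fold lower (81.3 to 211).

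The other 6 groups were pairs. Y46H3C.5 and Y46H3C.7 on chromosome V had the highest pair level, 42857 and 124 reads, 249-fold lower (209 to 299). F29G9.1 lay next to R01B10.2 (423 and 4 reads), a gene on the opposite strand. Y13C8A.1 was paired with Y13C8A.4 (745 and 1 reads), and Y9D1A.1 (5970 and 20) with Y9D1A.2 (1417 and 3). Y71A12B.2 and Y71A12B.3, both pseudogenes in the current annotation, had 1014 and 1276 wild-type reads and 95 and 90 RNAi reads. Their pair ratio of 8.91-fold lower (7.67 to 10.4) was the smallest of the 9 groups. K01A2.4 (4864 and 20) and mps-2 (5131 and 18) lie on opposite strands of 1 locus on chromosome II, with 118 bases of exon in common. Each had over 99% antisense reads in the wild-type library, so the small RNAs of that locus came from both strands.

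**Figure D3:**
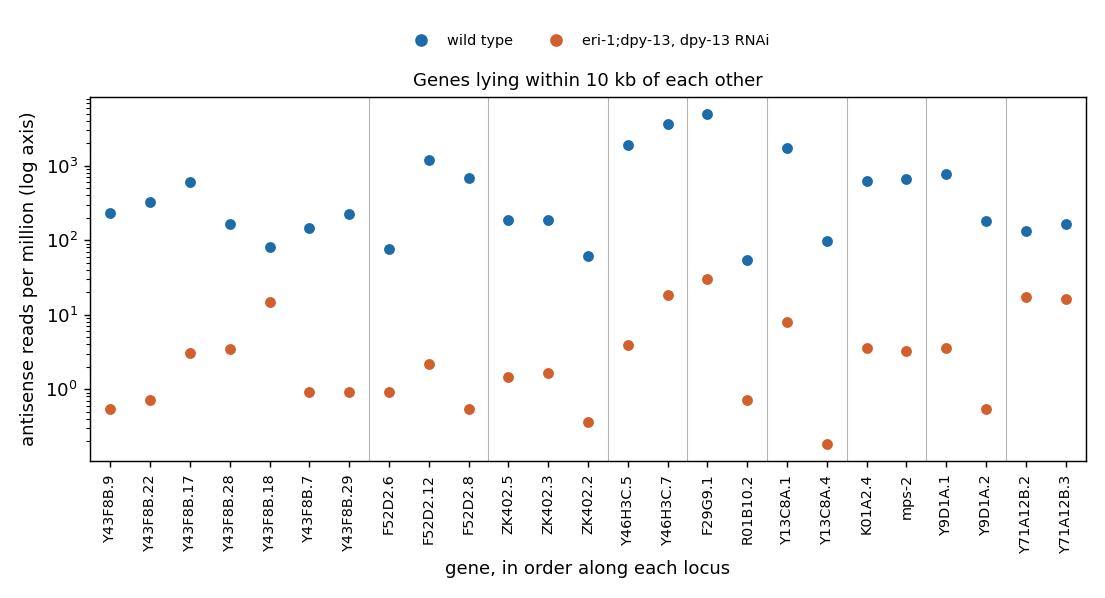
Antisense level, in RPM on a log axis, of the 25 genes that lie within 10 kb of another of the 63, in order by position in each of 9 groups separated by vertical lines; blue points are the wild-type library and orange points the RNAi library. In all groups every gene is above 50 RPM in the wild-type library, and Y43F8B.18 and the Y71A12B pair have the smallest gaps between libraries.

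Among protein-coding genes beside the 63, a larger share was lower in the RNAi library than among genes farther away. Of the 66 other protein-coding genes within 10 kb of one of the 63 and with 10 or more antisense reads, 21 (31.8%) had a ratio below 1, and 19 were 4-fold or more lower. Farther away 151 of 4853 (3.11%) had a ratio below 1, and 104 of 4853 were 4-fold or more lower. In RPM 41 of the 66 neighbours were 4-fold or more higher, against 4396 of the 4853 genes farther away. The median log2 ratio was 2.76 for the neighbours and 3.64 for the genes farther away. The contrast depended on the scaling. Under TMM 44 of 66 (66.7%) and 2258 of 4853 (46.5%) had a ratio below 1, with medians of -0.81 and 0.07. At 4-fold lower the TMM counts were 23 of 66 (34.8%) and 293 of 4853 (6.04%). Some of these neighbours passed both thresholds and were left out of the 63 by name: W04B5.2 (25161 and 11 reads) beside W04B5.1 (3017 and 6), K02E2.6 (2730 and 5) beside K02E2.11 (717 and 22), and W05H12.2 (8045 and 81) beside C01A2.1. Left-out F-box genes short of a threshold, fbxa-47 (69 and 0), fbxa-38 (17 and 0) and fbxa-136 (7 and 35), were not taken out for their name. Without the left-out genes past both thresholds and without genes that overlap one of the 63, 17 of 60 (28.3%) had a ratio below 1. Those named here from that set were chosen after their values were seen, among them Y17D7B.10 with 352 and 0 reads, Y57G11C.1144 with 223 and 0, and ZK402.1 with 289 and 12. Noncoding neighbours past the same thresholds were linc-24 (2343 and 0 reads) beside Y82E9BR.20 (881 and 2), and Y116A8B.98 (1320 and 5) beside Y116A8B.1 (3714 and 64).

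The 63 genes were short and had few exons. The longest annotated transcript had a median of 953 bases over 61 genes (middle range 555 to 1345), against 1160 bases (790 to 1771) for 20170 other protein-coding genes. Against the 4919 of these that had 10 or more antisense reads and an annotation, the median was 1747 bases. A minimum of reads favours longer transcripts, so this wider gap cannot be told apart from the filter. Transcripts under 500 bases made up 15 of 61 (24.6%) against 10.9%. The median exon number was 3 against 5. A single exon was found in 9 of 61 (14.8%) against 3.08%, and 3 or fewer exons in 35 of 61 (57.4%) against 27.1%. Y17D7B.4, T25G12.11 and F11D11.21 are single-exon genes, while eri-12 with 15 exons and Y9D1A.1 with 12 had the most.

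Several of the genes are not annotated as coding. In the current annotation 48 of the 61 are protein-coding, 10 (16.4%) are pseudogenes, against 2.67% of the other genes, 2 are long intergenic RNAs (F40H3.6 and Y9D1A.1) and 1 is an antisense RNA (anr-24). The pseudogenes include Y51H7C.15 with 17246 and 26 reads and F52D2.8 with 5309 and 3. ZC132.4 and Y13C8A.2 (2854 and 4 reads) had no entry.

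The genes were unevenly placed on the chromosomes. Chromosome V held 20 of the 61 (32.8%, against 25.3% of all placed protein-coding genes) and X held 15 (24.6% against 13.6%), while IV held 3 (4.92% against 16.4%) and III held 5 (8.20% against 13.2%). Chromosomes I and II held 9 each. With each chromosome divided into 3 equal parts, in the left or the right part lay 53 of the 61 (86.9%), against 62.5% of the other placed genes. These shares count neighbouring genes of 1 locus separately, so that 7 of the 20 genes on V are the Y43F8B group.

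**Figure D4:**
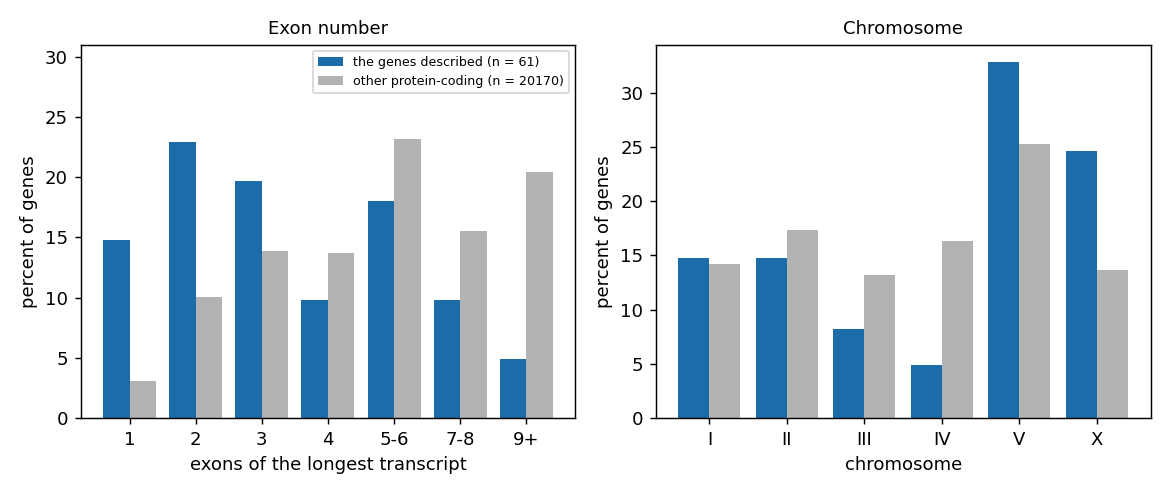
Left, percent of genes by number of exons in the longest annotated transcript; right, percent of genes by chromosome; blue bars are the 61 of the 63 genes with an annotation and grey bars the other 20170 protein-coding genes (left) or all placed protein-coding genes (right). Genes with 1 to 3 exons make up 57.4% of the blue and 27.1% of the grey bars, and chromosomes V and X hold more of the blue genes than of the grey.

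Genes that act in small RNA pathways were also counted. The list held 41 genes of the NRDE, ERI, mutator and Argonaute groups, of which 32 had 10 or more antisense reads. Of these 30 were 4-fold or more higher in the RNAi library and 1, eri-12, was 4-fold or more lower, beside 90.0% and 3.79% of protein-coding genes. The median log2 ratio of the 32 genes was 3.42, against 3.64 for protein-coding genes. Under TMM scaling 2 were 4-fold or more higher and 2 lower, and the medians were -0.15 and 0.07. Both higher genes had 0 wild-type reads and counted as higher for that reason, and none of the 32 with wild-type reads was 4-fold higher. eri-6, a helicase gene of the ERI pathway, had 67 and 623 reads. hrde-1, the germline nuclear Argonaute, had 7 and 196, and wago-4, another germline Argonaute, had 17 and 162. nrde-3 had 319 and 10360, and its tagged copy is a transgene present in both strains.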

How the data were processed

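The authors deposited raw counts of small RNA reads per transcript, sense and antisense, for 1 library per group. Per the series' design text, Bowtie2, run with default settings, placed the reads on the WS243 transcriptome; the sources used here give no version of it. The header has 5 names above lines of 6 fields, so columns were taken by position, and 2 and 3 incomplete lines (2 and 9 reads) were left out. Protein-coding lines were summed per gene. RPM is per 1000000 sense plus antisense reads. Ratios have exact 95% (Clopper-Pearson) intervals; for log2 ratios 0.5 was added to the counts, and genes of 10 or more reads over both libraries were measured. The RNAi library was scaled with TMM (edgeR 4.0.16) as an alternative. The interval code was tested on simulated data.

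Positions, biotypes and exons are taken by gene identifier from Ensembl release 115 (WBcel235), and are not those of the reads. The tables name only the transcriptome, and no sequence was used here, so the planned comparison of similar proteins was not run. Genes with near-identical copies share reads, and their counts are uncertain.

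The genes and lists were chosen with earlier results of these data known. Named were the 20 leading genes, the 5 highest in the RNAi library and on the sense strand, genes nearest the thresholds, those with genetic names or near another, and 5 pathway genes.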

Additional observations from a re-analysis of the deposited data

Results flagged for a closer look

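Y17D7C.6 has a second line of class ncRNA, which the comparisons did not use. It held 329 antisense reads in wild type against 0 in the RNAi library, beside 570 and 0 on its protein-coding line.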

How the results depend on the processing

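The number of genes was 63 and lay between 49 and 89 under the other thresholds, scalings and ways to sum isoforms; TMM could not remove a gene, since it lowers every RNAi level alike. The median log2 ratio was -7.60. It was -6.43 with RPM over antisense reads outside structural RNA, -11.17 with TMM, which shifts every ratio by -3.57, and -7.01 with 5 added to each count. As a share of antisense reads outside structural RNA in wild type, the genes held 37.6%, 37.8% with genes chosen on antisense RPM, 34.2% without H37A05.4, and 14.6% of all antisense reads. The summed sense ratio of 0.913 was 0.724 without pab-1 and turned to 1.06 without genes overlapping another strand's gene. The latter setting leaves out, among others, lido-8, mps-2 and W04A8.4 and keeps pab-1, and the cause was not tested further. The share of neighbours with a ratio below 1 was 31.8% and became 60% (9 of 15) with 100 or more reads, where 8.03% of genes farther away did. Under TMM scaling it was 66.7%, against 46.5% of genes farther away. Of 30 alternative values the other 20 stayed within 1.5 times the value given, for counts of genes, or inside its 95% interval, for medians, shares and ratios. Alternatives on neighbours and on summing every class, TMM scaling of the neighbours, pathway genes and other genes' sum, and the comparison of sense ratios with the median of other genes were chosen after the data were seen. With identity between proteins not run, shared reads cannot be assessed. No paired analysis was possible because each group holds 1 library. Genes with 0 to 5 RNAi reads have ratios known within wide intervals.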
